A study of Mus musculus with 27 samples.

Results

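The genes described here are 10 genes of prostaglandin and leukotriene metabolism, namely *Ptgs1*, *Ptgs2*, *Ptges*, *Ptges2*, *Hpgd*, *Alox5*, *Alox5ap*, *Ltc4s*, *Lta4h* and *Ltb4r1*, out of 30869 symbols in the array table. Their 17 probes were found by an exact match of the symbol, but the genes themselves were chosen by name with earlier results of these arrays known, under a rule that states no threshold on a measured value, so a count of members that passed a test is a description of these genes and not an independent finding. Expression was measured in 3 cell types of the colon lamina propria, monocytes, macrophages and type 1 conventional dendritic cells (cDC1s), taken by cell sorting from mice given 2% dextran sodium sulfate (DSS) in drinking water, an agent that injures the colon epithelium. WT and Mbd2-/- mice, both on a C57BL/6 background, were matched for age and sex, and no age is given for single groups. Litters were housed together wherever possible. The Mbd2-/- mice lack *Mbd2* in all cells, and every group, the WT controls included, had received DSS. Monocytes (CD11b+Ly6C+) were read on 5 arrays per genotype, and so were macrophages (Ly6C-MHC-II+F4/80+), while cDC1s (CD11b-CD11c+CD103+) had 2 WT and 3 Mbd2-/- arrays, which makes 25 in all. RNA of several mice could be pooled on an array, and the sources differ on how many. The paper states that replicates came from 3 separate experiments, which the labels do not name. The p-values thus measure the spread between such pools and experiments together. The question was whether the enzymes and receptors of this pathway differed between genotypes within a cell type, and between the cell types.

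Prostaglandins and leukotrienes are lipid mediators made from arachidonic acid. The cyclooxygenases, Ptgs1 (COX-1, mostly constitutive) and Ptgs2 (COX-2, inducible in inflammation), make prostaglandin H2, which prostaglandin E synthases turn into prostaglandin E2, and Hpgd inactivates prostaglandin E2. In the other branch, Alox5 (5-lipoxygenase) works with its partner protein Alox5ap (FLAP) to make leukotriene A4. Lta4h turns leukotriene A4 into leukotriene B4, a neutrophil attractant that signals through the receptor Ltb4r1, and Ltc4s turns it into the cysteinyl leukotriene C4. In the colon, prostaglandin E2 is known for its part in epithelial repair and leukotriene B4 for the recruitment of myeloid cells. Mbd2 is a protein that binds methylated CpG dinucleotides and is linked to gene repression.

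Since Mbd2 reads methylated CpG, the promoters of the 3 genes whose level differed between genotypes are shown first, from 250 bases before to 50 bases after the gene start, 5′ to 3′ on the gene's strand, with each CpG in capitals. They are RefSeq sequences of build GRCm38.p6, at chr2:30903248-30903547 (minus strand) for *Ptges*, chr11:50238483-50238782 (minus strand) for *Ltc4s* and chr14:55765712-55766011 (plus strand) for *Ltb4r1*.
Ptges: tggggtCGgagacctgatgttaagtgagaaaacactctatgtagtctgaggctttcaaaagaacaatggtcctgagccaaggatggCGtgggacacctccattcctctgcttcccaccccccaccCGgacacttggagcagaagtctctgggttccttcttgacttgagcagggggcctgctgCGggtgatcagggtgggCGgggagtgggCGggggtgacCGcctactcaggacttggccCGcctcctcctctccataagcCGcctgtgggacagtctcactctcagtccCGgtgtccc
Ltc4s: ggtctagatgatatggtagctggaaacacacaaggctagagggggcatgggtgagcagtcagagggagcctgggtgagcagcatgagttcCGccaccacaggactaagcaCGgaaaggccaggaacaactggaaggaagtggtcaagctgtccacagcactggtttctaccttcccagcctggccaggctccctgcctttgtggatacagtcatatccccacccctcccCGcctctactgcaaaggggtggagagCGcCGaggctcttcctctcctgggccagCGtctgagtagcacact
Ltb4r1: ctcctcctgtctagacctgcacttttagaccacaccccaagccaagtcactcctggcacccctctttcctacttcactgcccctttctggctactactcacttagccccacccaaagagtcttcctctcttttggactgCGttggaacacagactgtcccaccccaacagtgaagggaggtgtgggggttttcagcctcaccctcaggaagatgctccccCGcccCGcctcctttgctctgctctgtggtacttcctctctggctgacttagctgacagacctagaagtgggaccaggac

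These windows held 10 CpG in *Ptges*, 6 in *Ltc4s* and 3 in *Ltb4r1*, where the median of 32851 mouse promoters of the same length was 7 and 94.6% held at least 1. Of the 10 genes, 9 had a promoter in the table, with *Alox5ap* the exception, and the 6 not shown held from 6 CpG (*Ptgs1*) to 18 (*Ptges2*). The letters GGGCGG, a GC box, searched on both strands, occurred 2 times in the *Ptges* window, 1 time in *Ltb4r1* and not in *Ltc4s*, and 35.7% of all promoters held them. The letters GAGGAA, a core that PU.1 and other Ets factors can bind, occurred 1 time in *Ptges*, 1 time in *Ltc4s* and 2 times in *Ltb4r1*. They were found in 8 of the 9 member promoters and in 28.3% of all promoters. Both motifs were counted independently, so matches may share letters. DNA methylation was not measured, so these counts describe the sequence alone.

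On the arrays, Illumina MouseWG-6 BeadChips, the signal of a probe is how bright its beads are. Values below are log2 intensities after background correction and quantile normalization, for the probe of each gene with the highest mean over the 25 arrays. A probe was detected on an array at a detection p under 0.05 against negative control beads, and a test was passed at a Benjamini-Hochberg adjusted p under 0.05 in 1 limma fit over all probes and all 6 groups. Mean intensities ran from 172 to 353 per array, with 16024 to 18608 of 45281 probes detected. The *Mbd2* probe was detected on none of the 25 arrays (smallest detection p-value 0.0566), so the genotypes could not be checked by it. The cell type labels were borne out by their markers: 8 of 8 macrophage markers were higher in macrophages than in both other cell types, 7 of 7 cDC1 markers tested were higher in cDC1s than in macrophages and 7 of 8 than in monocytes, and 3 of 4 monocyte markers tested were lower in macrophages than in monocytes. In cDC1s all 3 T cell markers on the array were also higher than in the other cell types. The 9 epithelial and tuft cell markers summed to 4162 to 16160 over the arrays, and none of those tested passed between cell types. In these sorted bulk samples, fewer cells of a type and less RNA per cell cannot be told apart. Arrays of the deposited table, taken in sets of 6 in column order, held monocytes and WT cDC1s in sets 1 and 2 and macrophages and Mbd2-/- cDC1s in the later sets, so column position and the macrophage to monocyte or cDC1 genotype comparison cannot be told apart.

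**Figure D1:**
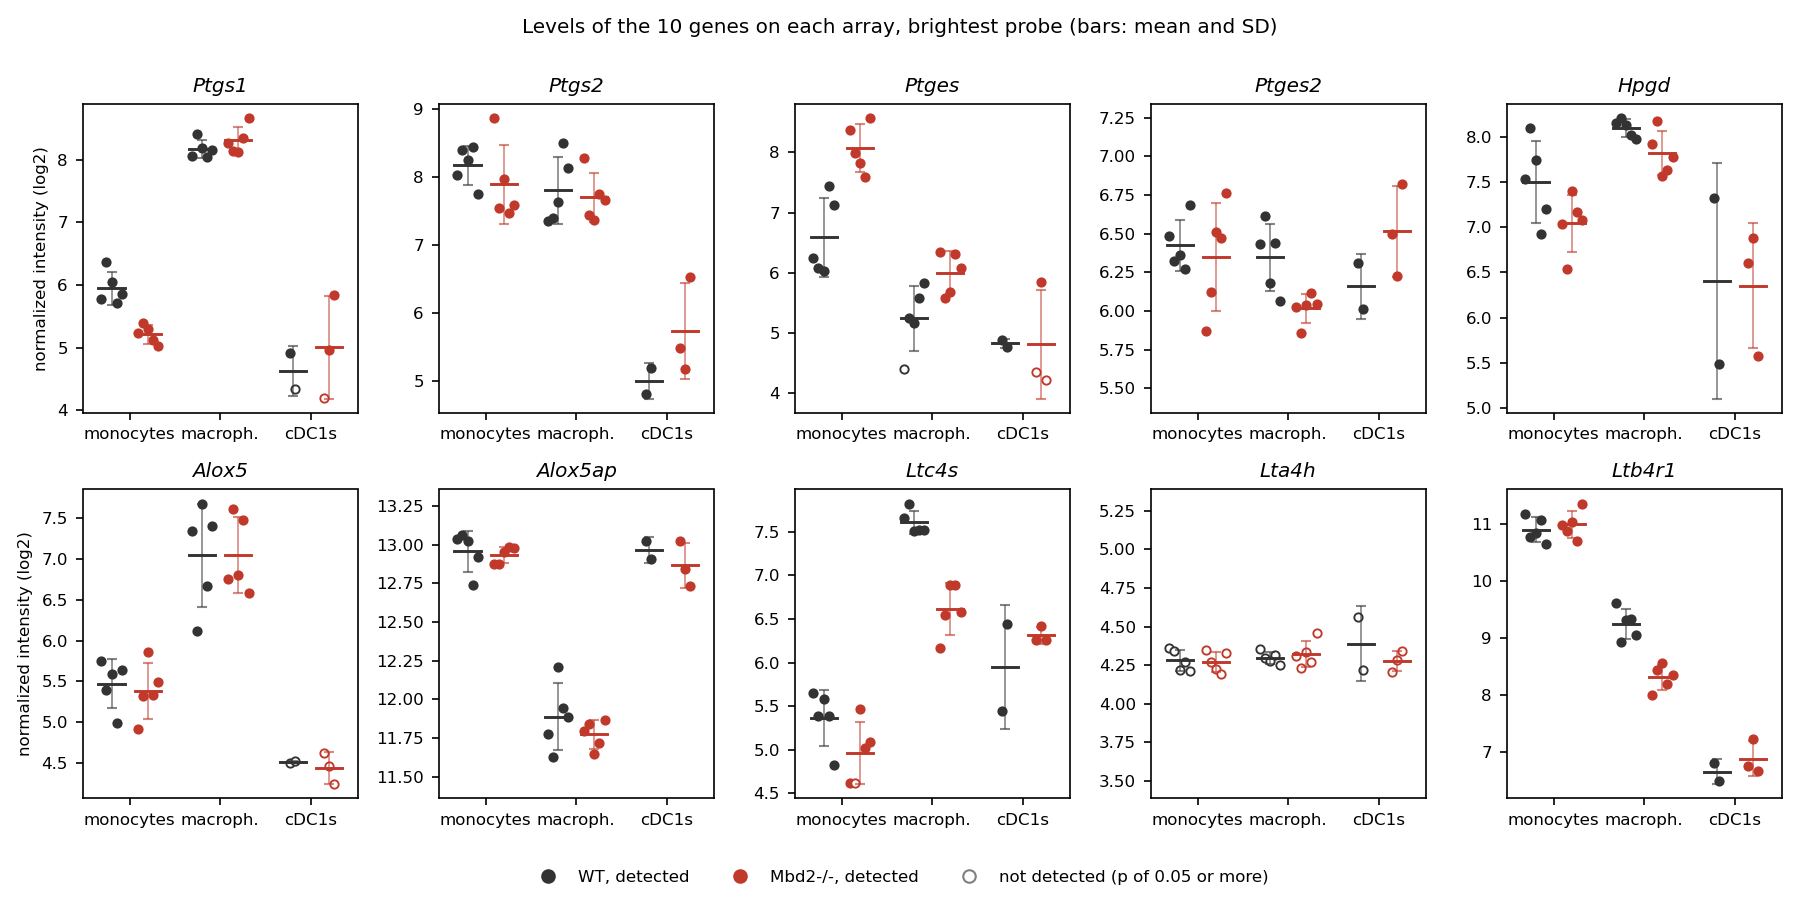
Normalized log2 intensity of the brightest probe of each of the 10 genes (vertical axis, with its own range in each panel) by cell type (horizontal axis). Each point is 1 array, black for WT and red for Mbd2-/-, hollow where the probe was not detected, and the bars are the mean and SD of each group. *Ptges* and *Ptgs1* in monocytes, and *Ltc4s* and *Ltb4r1* in macrophages, show genotypes that do not overlap, while *Lta4h* was not detected on any array. Of these, *Ptgs1* did not pass the test, and the share of all probes without overlap was not counted.

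In monocytes, *Ptges*, the inducible microsomal prostaglandin E synthase, was higher in Mbd2-/- than in WT. The WT arrays read 6.04, 6.08, 6.25, 7.12 and 7.45, and the Mbd2-/- arrays 7.59, 7.83, 7.98, 8.36 and 8.57. Every Mbd2-/- array was above every WT array, and 2 of the WT arrays lay clearly above the other 3. The means were 6.59 ± 0.65 (SD, n = 5) and 8.07 ± 0.40 (SD, n = 5), a log2 difference of 1.48 (95% interval 0.79 to 2.16), or 2.79-fold (limma adjusted p = 0.0188). A dimmer probe of *Ptges* rose by 1.62 on the log2 scale (95% interval 1.25 to 1.98), 3.07-fold (adjusted p = 3.34e-05), from 4.92 ± 0.39 to 6.53 ± 0.40 (SD, n = 5 each), also with no overlap, and both probes followed each other over the 25 arrays (Pearson r = 0.875, a description over arrays of different cell types). Within set 1 of the columns the brighter probe differed by 2.05 (3 WT, 2 Mbd2-/- arrays) and within set 2 by 0.71 (2 WT, 3 Mbd2-/-), without overlap in either. The adjusted p of the brighter probe was from 0.0501 to 0.0694 when WT array 2 or 3 or Mbd2-/- array 8 or 9 was left out, 0.0824 under median scaling and 0.0516 without the filter on dim probes.

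Of the other 8 members tested in monocytes, none passed, so 1 of 9 tested rose; of all 16190 probes tested, 2.37% were called in either direction. *Ptgs1* came nearest. Its WT arrays read 5.71, 5.77, 5.86, 6.04 and 6.36 and its Mbd2-/- arrays 5.02, 5.11, 5.24, 5.30 and 5.40, so the genotypes did not overlap, at a difference of -0.74 (95% interval -1.16 to -0.31, adjusted p = 0.0597). With array weights its adjusted p was 0.00938, and with monocytes normalized and fitted alone 0.0172. Without Mbd2-/- cDC1 array 27 or 30, which enter the shared spread, it was 0.0139 or 0.0109. Over all fits with 1 array left out, its adjusted p ran from 0.0109 to 0.185. Over the other settings it ran from 0.00938 to 0.154, at differences from -0.95 to -0.30. Both dimmer *Ptgs1* probes were detected on too few monocyte arrays to be tested. *Ltc4s* differed by -0.41 (adjusted p = 0.315), *Hpgd* by -0.46 (adjusted p = 0.476) and *Ptgs2* by -0.29 (adjusted p = 0.699). For *Alox5*, *Alox5ap*, *Ptges2* and *Ltb4r1* the differences lay between -0.09 and 0.09, and the 95% interval of *Alox5ap*, from -0.20 to 0.15, was the narrowest. Over the 9 members the median difference was -0.09, against -0.02 over all probes tested.

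Beside the *Ptges* result, the summed intensity of 5 neutrophil markers was 158 to 222 in WT monocytes and 183 to 293 in Mbd2-/- monocytes, that of 9 epithelial and tuft cell markers 5136 to 13500 and 5829 to 10610, and that of 7 mast cell markers 247 to 348 and 314 to 420. None of the tested markers of these lists passed (0 of 3, 0 of 6 and 0 of 1). Of 8 macrophage markers, 1 (*Mrc1*) was lower in Mbd2-/- monocytes, and so was 1 of 4 tested cDC1 markers. The part of these cells in the *Ptges* result was not tested.

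In macrophages, *Ltc4s*, the synthase of leukotriene C4, was lower in Mbd2-/-. WT arrays read 7.51, 7.51, 7.52, 7.66 and 7.82, and Mbd2-/- arrays 6.17, 6.54, 6.58, 6.89 and 6.89. No array of one genotype reached the other, and the WT arrays were the tighter. The means were 7.61 ± 0.14 (SD, n = 5) and 6.61 ± 0.30 (SD, n = 5), a log2 difference of -0.99 (95% interval -1.39 to -0.59), 1.99-fold lower (adjusted p = 0.00549). Within set 3 of the columns the difference was -1.31 and within set 4 it was -0.73, with no overlap in either. Under median scaling the difference was -0.999 with an adjusted p of 0.0625.

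*Ltb4r1*, the high-affinity receptor of leukotriene B4, was lower in the same macrophages. WT arrays read 8.93, 9.05, 9.31, 9.34 and 9.61, and Mbd2-/- arrays 7.99, 8.20, 8.36, 8.44 and 8.56, again with no overlap. The means were 9.25 ± 0.27 (SD, n = 5) and 8.31 ± 0.22 (SD, n = 5), a log2 difference of -0.94 (95% interval -1.25 to -0.63), 1.92-fold lower (adjusted p = 0.00123). It was -1.07 within set 3 of the columns and -0.83 within set 4. These 2 were the members that passed of 9 tested, both lower, while 7.21% of the 16834 probes tested in macrophages were called. *Ptges* differed by 0.76 in macrophages (95% interval 0.07 to 1.45, adjusted p = 0.155), with WT arrays at 4.40 to 5.83 and Mbd2-/- arrays at 5.59 to 6.35. *Ptges2*, a second prostaglandin E synthase, differed by -0.33 (adjusted p = 0.157). The difference was 0.14 for *Ptgs1* (-0.29 to 0.56), -0.10 for *Ptgs2* (-0.70 to 0.49), 0.003 for *Alox5* (-0.53 to 0.53) and -0.28 for *Hpgd* (-0.87 to 0.31). A second *Ptgs1* probe, detected on 5 of 5 arrays of each genotype, was higher in Mbd2-/- by 0.83 (0.18 to 1.49, limma adjusted p = 0.103). The dimmest *Ptgs1* probe was higher by 0.52 (-0.12 to 1.15, adjusted p = 0.298), and neither passed. Both dimmer *Alox5* probes were lower in Mbd2-/-, by -0.39 (-0.67 to -0.11, adjusted p = 0.0811) and -0.26 (-0.56 to 0.03, adjusted p = 0.253), and neither passed. The brighter *Alox5ap* probe differed by -0.12 (adjusted p = 0.415) and the dimmer by -0.26 (adjusted p = 0.0317), so only the dimmer passed, and its arrays overlapped. The median over the 9 members was -0.12 and over all probes tested -0.07.

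Macrophage markers summed to 36650 to 42560 in WT and 36180 to 43130 in Mbd2-/- macrophages, over 8 genes, of which *Mertk* was higher in Mbd2-/- by 0.88 (adjusted p = 0.00720). Of 4 tested cDC1 markers *Zbtb46* was lower by 0.55 (-0.55, adjusted p = 0.00473). Monocyte markers (5 on the array) summed to 3878 to 6574 and 5640 to 7798, and 2 of 4 tested, *Ly6c1* and *Plac8*, were higher in Mbd2-/- macrophages. Mast cell markers summed to 329 to 446 and 373 to 531, with 0 of 3 tested passing. Of the eosinophil list (130 to 155 and 145 to 216), *Siglecf* and *Epx* were detected on no array and *Prg2*, the gene of major basic protein, was higher in Mbd2-/- macrophages. The part of these cells in both results was not tested.

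In cDC1s no member passed in limma (0 of 8 tested, 0 at an unadjusted p under 0.05), against 8.61% of the 17838 probes tested; *Alox5* and *Lta4h* were not tested there because too few arrays detected them. With 2 and 3 arrays the intervals were wide. For *Ptgs2* the WT arrays read 4.81 and 5.18 and the Mbd2-/- arrays 5.17, 5.48 and 6.52, a difference of 0.73 (95% interval -0.13 to 1.59, adjusted p = 0.275). *Ltc4s* read 5.44 and 6.45 in WT and 6.25, 6.26 and 6.42 in Mbd2-/-, a difference of 0.37 (-0.21 to 0.94, adjusted p = 0.429), and *Ltb4r1* 6.49 and 6.805 against 6.66, 6.75 and 7.22, a difference of 0.23 (-0.22 to 0.68, adjusted p = 0.537). *Ptgs1* differed by 0.38 (adjusted p = 0.449), by 0.78 (adjusted p = 0.0427) without Mbd2-/- array 27 and by -0.04 (adjusted p = 0.941) without array 30. *Ptges* differed by -0.02 (-1.005 to 0.97), *Ptges2* by 0.36 (-0.07 to 0.79), *Alox5ap* by -0.10 (-0.35 to 0.16) and *Hpgd* by -0.05 (-0.90 to 0.80). *Ptges* was detected on 2 of 2 WT and 1 of 3 Mbd2-/- arrays and *Ptgs1* on 1 of 2 and 2 of 3. The limit of detection thus also restricts both estimates. The dimmer *Alox5ap* probe differed by 0.04 (-0.18 to 0.25, adjusted p = 0.861). The median over the 8 members was 0.29 and over all probes tested 0.03.

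**Figure D2:**
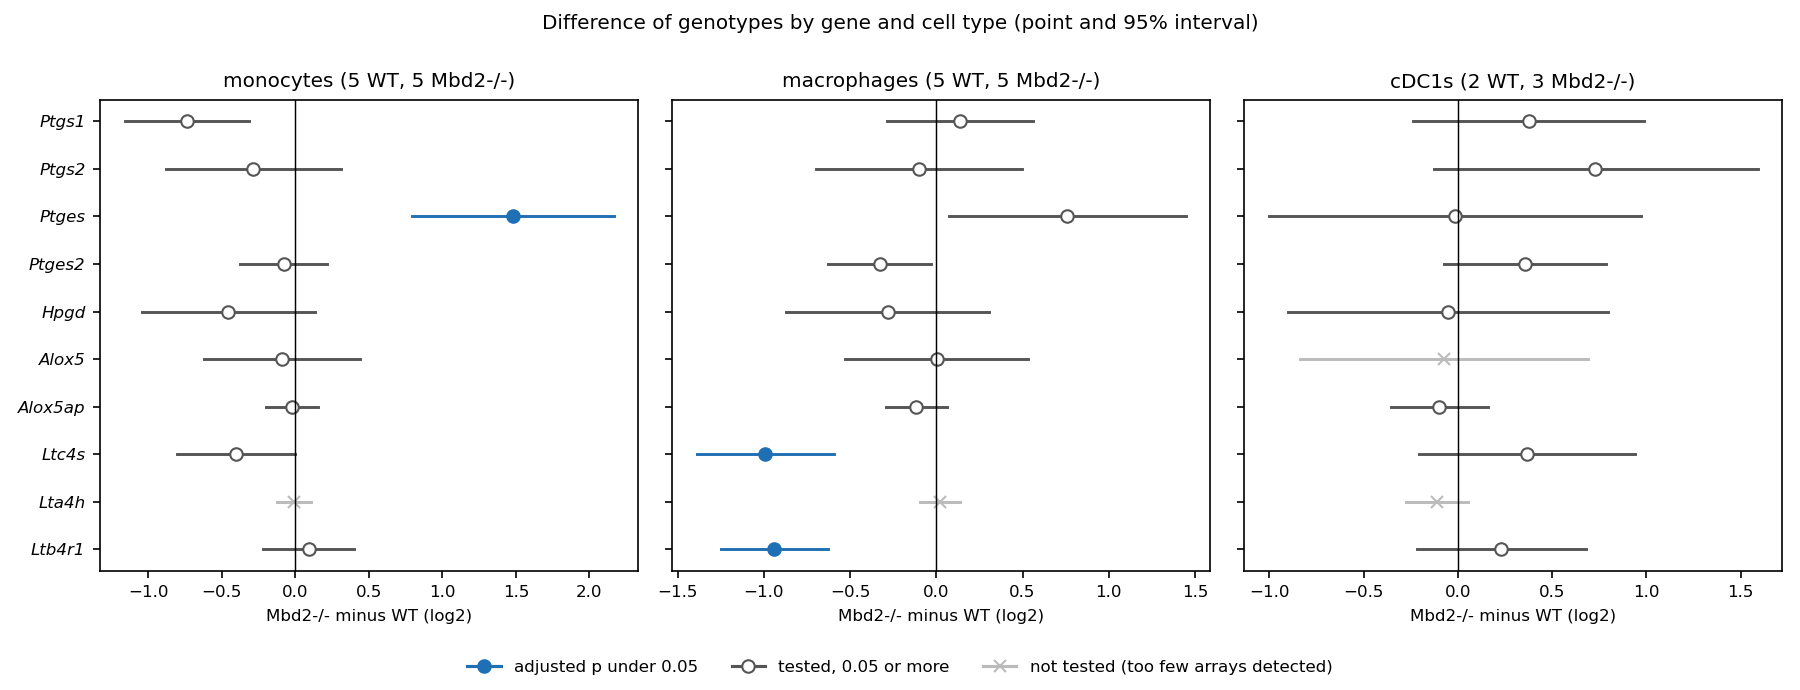
Log2 difference, Mbd2-/- minus WT, of each gene (vertical axis) in the 3 cell types (panels, each with its own horizontal range). Points are limma estimates with their 95% intervals, filled blue where the adjusted p was under 0.05, hollow where it was not, and grey crosses where the probe was not tested. *Ptges* lies to the right in monocytes at 1.48 and *Ltc4s* and *Ltb4r1* to the left in macrophages at -0.99 and -0.94.

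Whether the genotype effect itself differed between cell types was tested as an interaction. Between cDC1s and macrophages it differed for *Ltc4s* by 1.36 (95% interval 0.66 to 2.06, adjusted p = 0.0218) and for *Ltb4r1* by 1.17 (0.63 to 1.72, adjusted p = 0.0139), 2 of 9 members tested and 7.7% of all probes. WT and Mbd2-/- cDC1s lay in different column sets, so column position and an interaction with cDC1s cannot be told apart. Both interactions lost the call under median scaling (0.80, adjusted p = 0.377, and 0.61, adjusted p = 0.400), and that of *Ltc4s* also without WT cDC1 array 23 (0.86, adjusted p = 0.240) and with array weights (adjusted p = 0.0835). Between macrophages and monocytes no member passed by its brightest probe (0 of 9 by limma, 3 at an unadjusted p under 0.05), where 0.0372% of all probes were called. There *Ltb4r1* had the smallest p, at -1.03 (95% interval -1.47 to -0.59, adjusted p = 0.108), and with array weights its adjusted p was 0.0408. Between cDC1s and monocytes none passed either (0 of 9, 3 at an unadjusted p under 0.05), against 1.62% of all probes.

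The dimmer *Ptges* probe entered the interactions through monocytes, where it was high, and was not tested for genotype in macrophages or cDC1s, so a smaller effect there was set by the limit of detection. Its fitted interactions, given as values from which no difference between cell types is read, were -1.42 for macrophages against monocytes (95% interval -1.94 to -0.91, adjusted p = 0.0315) and -1.52 for cDC1s against monocytes (-2.16 to -0.88, adjusted p = 0.0168). For the brighter probe these were -0.72 (-1.69 to 0.25, adjusted p = 0.727) and -1.49 (-2.70 to -0.29, adjusted p = 0.181). The brighter probe was detected on 3 of 5 cDC1 arrays, so the latter value is also limited by detection. The dimmer probe was detected on 0 of 5 WT and 4 of 5 Mbd2-/- macrophage arrays, at 4.40 ± 0.11 and 4.59 ± 0.15 (SD, n = 5 each). The lowest detected probe of an array read 4.52 to 4.69. The dimmer probe was detected on 1 of 5 cDC1 arrays.

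**Figure D3:**
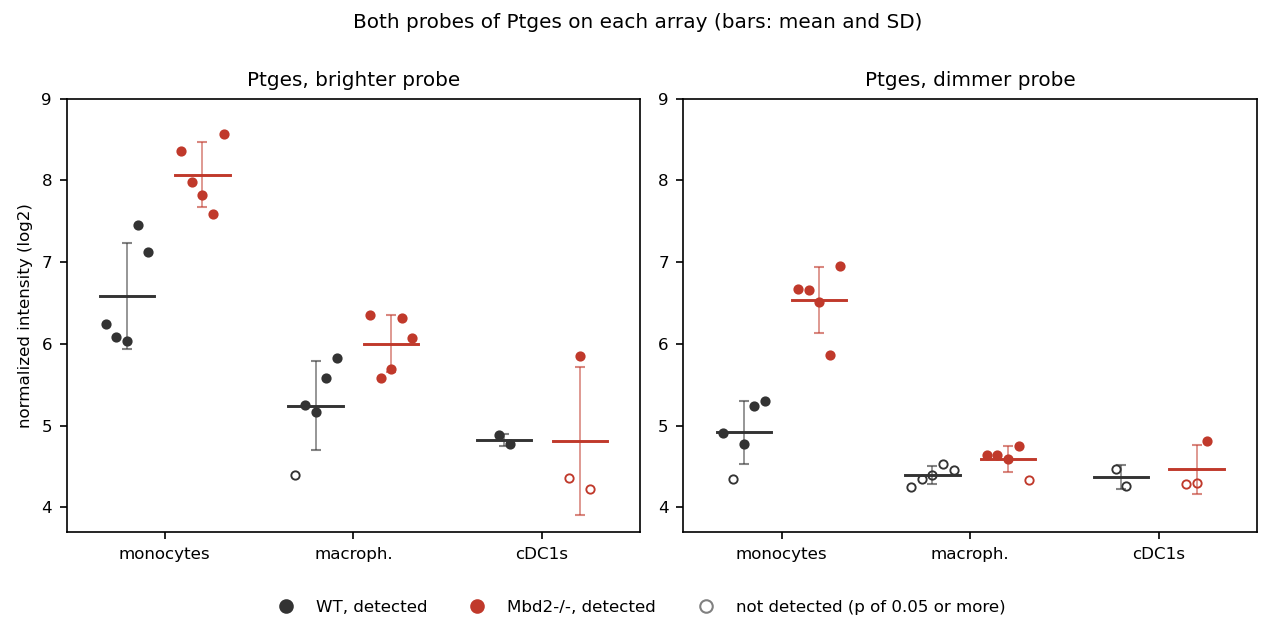
Normalized log2 intensity of the brighter (left) and dimmer (right) *Ptges* probe on each array, by cell type and genotype (black WT, red Mbd2-/-, hollow where not detected), with the mean and SD of each group. Both probes separate the genotypes in monocytes, and outside monocytes the dimmer probe stays below 5.

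Apart from genotype, the members differed widely between cell types. The brightest *Ptgs1* probe was highest in macrophages, at 8.04 to 8.66 (median 8.17) over 10 arrays, then monocytes at 5.02 to 6.36 (median 5.56), and lowest in cDC1s, where the 5 arrays read from 4.202 to 5.85 and 3 were detected. No macrophage array overlapped the others. Macrophages exceeded monocytes by 2.66 (95% interval 2.36 to 2.96, 6.30-fold, adjusted p = 6.21e-12), and cDC1s lay below macrophages by 3.42 (-3.42, adjusted p = 5.58e-13) and below monocytes by 0.77 (-0.77, adjusted p = 0.00103). The last of these differences was -0.21 (adjusted p = 0.505) in Mbd2-/- arrays alone. A second *Ptgs1* probe gave 1.51 for macrophages against monocytes (adjusted p = 1.13e-05) and -0.14 for cDC1s against monocytes (adjusted p = 0.686). It was detected on 4 of 10 monocyte and 2 of 5 cDC1 arrays, so the limit of detection left little room for a difference between these 2. Another *Ptgs1* probe, detected on 10 of 25 arrays, gave -0.53 for cDC1s against macrophages (adjusted p = 0.1001).

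*Ptgs2* had another order. It read 7.47 to 8.87 (median 8.00) in monocytes and 7.35 to 8.498 (median 7.65) in macrophages, which overlapped and differed by -0.28 (95% interval -0.70 to 0.14, adjusted p = 0.292). In cDC1s the arrays read 4.81, 5.17, 5.18, 5.48 and 6.52, below all arrays of the other cell types, at -2.39 against macrophages (5.25-fold lower, adjusted p = 4.92e-08) and -2.67 against monocytes (6.38-fold lower, adjusted p = 7.77e-09). Its dimmer probe was detected on no array. *Ptges* was highest in monocytes at 6.04 to 8.57 (median 7.52), next in macrophages at 4.40 to 6.35 (median 5.64), and lowest in cDC1s at 4.23 to 5.85, and neighbours in this order overlapped. Macrophages lay below monocytes by 1.70 (-1.70, adjusted p = 4.81e-06) and cDC1s below monocytes by 2.51 (-2.51, adjusted p = 1.81e-07). The difference of cDC1s from macrophages, -0.80 (adjusted p = 0.0231), was no longer past the threshold without background correction (adjusted p = 0.0851), at an offset of 50 (0.0650), with cyclic loess (0.0550), with no filter on dim probes (0.0529), in WT arrays alone (0.473) or when WT array 23 or 26 or Mbd2-/- array 27 or 30 of the cDC1s was left out (0.0592 to 0.0755). The dimmer probe gave -0.08 there (adjusted p = 0.703). It was detected on only 4 of 10 macrophage and 1 of 5 cDC1 arrays, so it could show little difference. The brighter probe was detected on 3 of 5 cDC1 arrays, so its differences from cDC1s are also partly measured against background. *Ptges2* read 5.87 to 6.76 in monocytes, 5.86 to 6.61 in macrophages and 6.01 to 6.82 in cDC1s, and none of its 3 differences between cell types, from -0.20 to 0.16, passed. In Mbd2-/- arrays alone it was 0.50 higher in cDC1s than in macrophages (adjusted p = 0.0172), and without Mbd2-/- monocyte array 9 macrophages lay below monocytes by 0.26 (-0.26, adjusted p = 0.0270).

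*Hpgd*, which breaks prostaglandin E2 down, was highest in macrophages at 7.57 to 8.21 (median 8.00), then monocytes at 6.54 to 8.09 (median 7.18), which overlapped. Its cDC1 arrays were spread widely, at 7.33 and 5.48 in WT and 6.60, 6.88 and 5.57 in Mbd2-/-. Macrophages exceeded monocytes by 0.69 (adjusted p = 0.00873), and cDC1s lay below macrophages by 1.58 (-1.58, adjusted p = 1.43e-05) and below monocytes by 0.90 (-0.90, adjusted p = 0.00424). Without WT cDC1 array 26 the last difference was -0.43 (adjusted p = 0.133) and in Mbd2-/- arrays alone -0.69 (adjusted p = 0.0893), and in WT arrays alone the difference of macrophages from monocytes was 0.60 (adjusted p = 0.131). WT cDC1 array 23 and Mbd2-/- array 28, with the highest *Hpgd*, also had the highest cDC1 levels of the T cell marker *Cd3g* (10.16 and 9.02) and the mast cell protease *Mcpt1* (9.39 and 9.32). The other 3 cDC1 arrays read 6.63 to 8.25 for *Cd3g* and 4.56 to 6.70 for *Mcpt1*. Epithelial and tuft cell markers summed to 4162 to 16120 on the WT and 4650 to 10170 on the Mbd2-/- cDC1 arrays. The part of T cells, mast cells or epithelial cells in the *Hpgd* levels was not tested.

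In the leukotriene branch, *Alox5* was highest in macrophages, at 6.11 to 7.67 (median 7.07), and read 4.91 to 5.86 (median 5.45) in monocytes, a difference of 1.61 (3.06-fold, adjusted p = 3.11e-07) with no overlap. It was detected on 0 of 5 cDC1 arrays. With the lowest detected signal of each cDC1 array as the floor, *Alox5* was at least 5.38-fold higher in macrophages and at least 1.76-fold higher in monocytes than in cDC1s. The limma adjusted p of 2.69e-09 and 0.00108 belong to the fitted differences of -2.56 and -0.95, in which the cDC1 signal was background, and not to these bounds. Both dimmer *Alox5* probes were also higher in macrophages than in monocytes, by 0.84 and 0.71 (adjusted p = 3.95e-07 and 7.01e-06), with arrays of the cell types that overlapped. *Alox5ap*, its partner, had a different pattern. It read 12.74 to 13.06 in monocytes, 12.73 to 13.02 in cDC1s and 11.62 to 12.21 in macrophages. Macrophages lay below monocytes by 1.12 (-1.12, 95% interval -1.24 to -0.99, adjusted p = 5.76e-12) and cDC1s above macrophages by 1.09 (adjusted p = 5.74e-11), and cDC1s and monocytes differed by -0.03 (-0.19 to 0.13, adjusted p = 0.758). The last difference was -0.41 (adjusted p = 0.0379) under median scaling and 0.23 (adjusted p = 0.0133) with cyclic loess, so its sign depended on the scaling.

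*Ltc4s* was highest in macrophages, at 6.17 to 7.82 (median 7.20), then cDC1s at 5.44 to 6.45 (median 6.26), and lowest in monocytes at 4.61 to 5.65 (median 5.24), with cDC1s overlapping both. Macrophages exceeded monocytes by 1.95 (3.85-fold, adjusted p = 2.45e-10) with no overlap. The cDC1s lay 0.98 below macrophages (-0.98, adjusted p = 3.94e-05), yet only -0.30 (adjusted p = 0.278) in Mbd2-/- arrays alone. They lay 0.96 above monocytes (adjusted p = 4.69e-05), and 0.58 (adjusted p = 0.0751) in WT arrays alone. *Ltc4s* is also a gene of mast cells, and of 7 mast cell markers on the array 3 (*Cpa3*, *Mcpt1* and *Kit*) were tested and higher in cDC1s than in monocytes. The list summed to 1773 to 2262 in cDC1s, 247 to 420 in monocytes and 329 to 531 in macrophages. *Kit* read 10.33 to 11.05 on the cDC1 arrays, while *Cma1* and *Ms4a2* were detected on 0 of 5 cDC1 arrays and *Mcpt2* and *Mcpt4* on 1 of 5 each. WT cDC1 array 23 had the highest *Mcpt1* (9.39) and the lowest *Ltc4s* (5.44). WT array 26 had *Mcpt1* at 5.30 and the highest *Ltc4s* (6.45), and Mbd2-/- array 28 read 9.32 and 6.42. The part of mast cells in the *Ltc4s* level was not tested.

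*Ltb4r1* had the widest span of the members between cell types. It read 10.65 to 11.36 (median 10.93) in monocytes, 7.99 to 9.61 (median 8.74) in macrophages and 6.49 to 7.22 (median 6.75) in cDC1s, so the 3 cell types did not overlap. Macrophages lay below monocytes by 2.17 (-2.17, 4.51-fold, adjusted p = 1.29e-12), cDC1s below macrophages by 2.02 (-2.02, 4.04-fold, adjusted p = 2.14e-11) and below monocytes by 4.19 (-4.19, 18.2-fold, adjusted p = 9.58e-17). *Lta4h*, the enzyme that makes leukotriene B4, was represented by 1 probe that was detected on 0 of 25 arrays (smallest detection p-value 0.0534), and no difference was tested for it.

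In counts, 7 of 9 members tested passed between macrophages and monocytes, 4 higher and 3 lower in macrophages, where 40.4% of all probes were called. Between cDC1s and macrophages 8 of 9 passed, 1 higher and 7 lower in cDC1s, where 54.2% were called, and between cDC1s and monocytes 7 of 9, 1 higher and 6 lower, where 54.6% were called. *Alox5*, counted as lower in both, was detected on no cDC1 array and entered these tests through the other cell type. The median difference of the members was -0.20, -1.58 and -0.89 in these comparisons, and that of all probes tested -0.001, -0.01 and -0.01. Median scaling moved the median of all probes for both cDC1 comparisons to -0.28, and the directions of the members that passed were as given here under it.

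**Figure D4:**
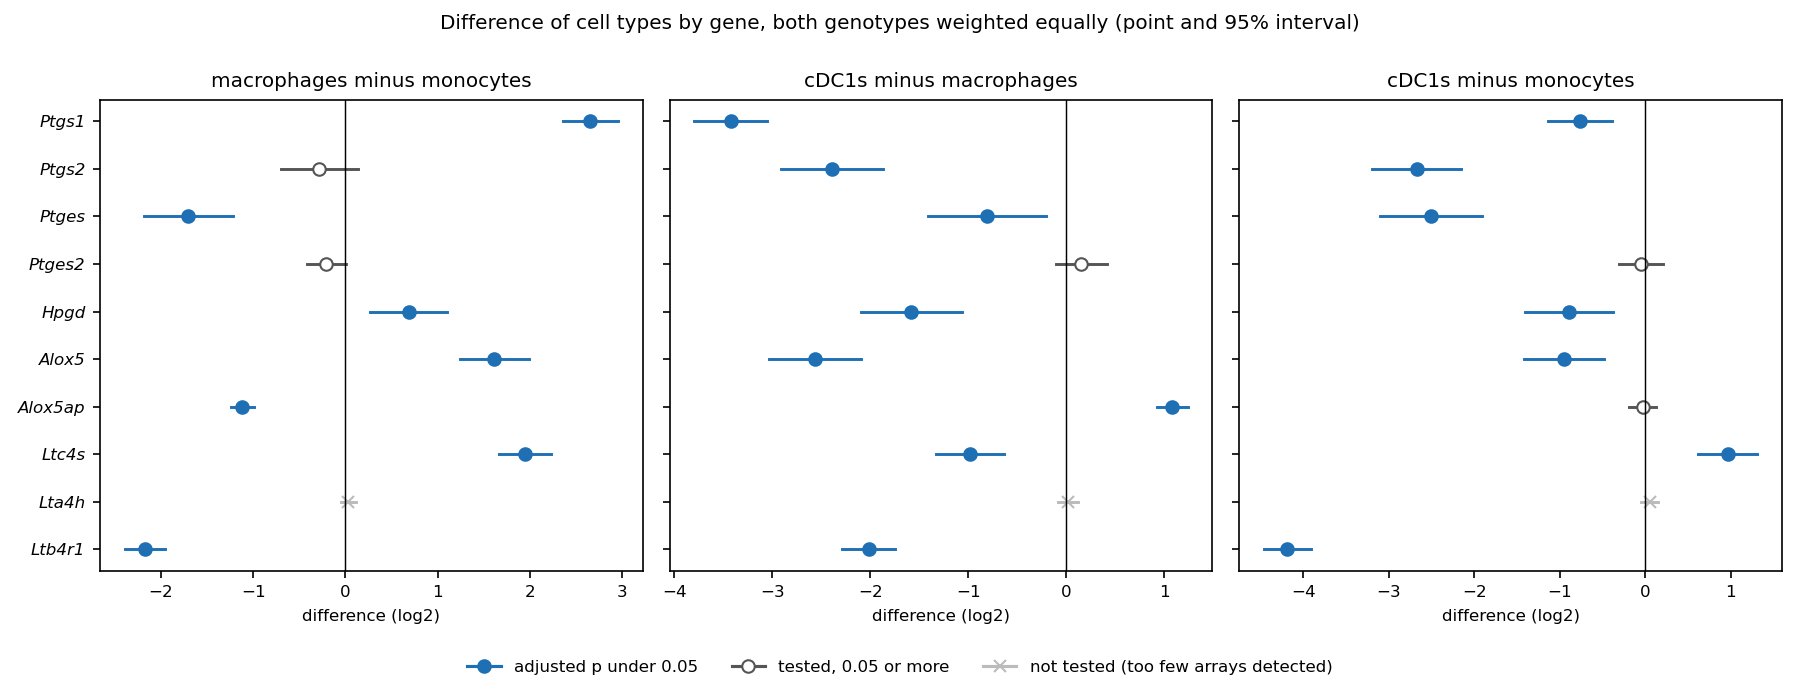
Log2 difference between cell types for each gene (vertical axis), with both genotypes weighted equally and an own horizontal range in each panel. Points are limma estimates with 95% intervals, blue where the adjusted p was under 0.05, hollow where it was not, grey crosses where not tested. *Ptgs1*, *Alox5*, *Ltc4s* and *Hpgd* lie to the right for macrophages against monocytes, and 7 members lie to the left for cDC1s against macrophages.

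Across the 25 arrays, the genes most like each member were found by Pearson correlation with 14404 other genes, as a description in which arrays of 3 cell types share their differences. *Ptgs1* was most like *Cxcl4* (r = 0.974), *LOC100048554* (0.969) and *Cd22* (0.966). *Ptgs2* was most like *Lcp2* (r = 0.962), *Marcksl1* (0.954) and *Ccrn4l* (0.948), and *Ptges* like *Rdh11* (r = 0.940) and *LOC100047856* (0.921). *Alox5* was most like *Folr2* (r = 0.948), *Ccl7* (0.943) and *LOC100048554* (0.940), and *Alox5ap* like *Napsa* (r = 0.937), *S100a11* (0.918) and *Tspo* (0.909). For *Ltc4s* these were *Pmepa1* (r = 0.928), *Ddhd2* (0.914) and *Plekhg5* (0.912), for *Ltb4r1* *Spata13* (r = 0.970), *D930042A21Rik* (0.965) and *Apom* (0.964), and for *Hpgd* *Pparg* (r = 0.907), *Entpd4* (0.903) and *Rnase4* (0.893). The nearest to *Ptges2* was *BC027231* at r = 0.776.

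Of 44 further genes of the pathway, 43 were on the array, *Hpgds* and *Ptgdr2* under the older symbols Ptgds2 and Gpr44, and the brightest probe of 4 of them was detected on no array. Between genotypes 0 of 24 tested passed in monocytes (limma, 5 at an unadjusted p under 0.05), against 2.37% of all probes. In macrophages 2 of 26 passed, against 7.21% of all probes. *Pla2g2d*, a secreted phospholipase A2, was higher in Mbd2-/- by 0.93 (adjusted p = 0.0446), with WT arrays at 4.66 to 6.31 and Mbd2-/- arrays at 5.79 to 7.63. *Dpep2*, a dipeptidase that acts on leukotriene D4, was lower by 0.74 (-0.74, adjusted p = 0.00927), at 8.79 to 9.41 and 8.21 to 8.83. Both overlapped between genotypes.

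In cDC1s 6 of 24 passed, 4 higher and 2 lower in Mbd2-/-, against 8.61% of all probes. With cDC1s normalized and fitted alone, 0 probes of the whole array passed, and under median scaling 31 of 816 calls were higher. *Cyp4f18*, a leukotriene B4 hydroxylase, was higher by 0.94 (adjusted p = 0.00781), *Ptgis*, the prostacyclin synthase, by 1.45 (adjusted p = 0.0274) and *Ptgdr2*, a prostaglandin D2 receptor, by 0.50 (adjusted p = 0.0262). *Cysltr1*, a receptor for cysteinyl leukotrienes, was lower by 1.21 (-1.21, adjusted p = 0.00230), with WT arrays at 7.82 and 7.90 and Mbd2-/- arrays at 6.42 to 7.09, and *Dpep2* by 0.75 (-0.75, adjusted p = 0.0399). The genotypes lay in different column sets, and the Mbd2-/- cDC1 arrays were dimmer (mean intensity 172 to 228 against 265 to 292) with fewer probes detected (16383 to 16572 against 17443 to 17635). *Cyp4f18* read 10.38 to 11.05 in monocytes and macrophages, and in Mbd2-/- cDC1s the macrophage marker *C1qb* (0.93, adjusted p = 0.0109; 1 of 8), the neutrophil marker *Ltf* (1.07, adjusted p = 0.0317; 1 of 2 tested) and the eosinophil marker *Prg2* (1.27, adjusted p = 0.0180; 1 of 2 tested) were also higher. Summed over the macrophage list, intensity ranged from 1383 to 1432 on the WT cDC1 arrays and from 1636 to 3854 on the Mbd2-/- ones. The part of these cells and of brightness in the cDC1 differences was not tested. The interaction of cDC1s with macrophages passed for 3 of 35 genes (7.7% of all probes), *Cyp4f18* (0.94, adjusted p = 0.0269), *Ptgis* (1.77, adjusted p = 0.0321) and *Pla2g4b*, a cytosolic phospholipase A2 (0.75, adjusted p = 0.0328). That of cDC1s with monocytes passed for 1 of 30 (1.62% of all probes), *Cyp4f18* (1.18, adjusted p = 0.0199), and that of macrophages with monocytes in limma for 0 of 27 (4 at an unadjusted p under 0.05; 0.0372% of all probes).

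Between cell types, 11 of 25 of these genes passed for macrophages against monocytes, 6 higher and 5 lower, where 40.4% of all probes were called. *Hpgds*, the haematopoietic prostaglandin D synthase, was higher in macrophages by 2.85 (adjusted p = 2.23e-13), *Pla2g2d*, detected on 2 of 10 monocyte arrays and so measured mostly against background, by a fitted 1.66 (adjusted p = 5.92e-07) and *Tbxas1*, the thromboxane A synthase, by 0.77 (adjusted p = 9.80e-07). *Abcc4*, a prostaglandin exporter, was lower by 0.94 (-0.94, adjusted p = 6.40e-11), *Dpep2* by 0.62 (-0.62, adjusted p = 9.31e-05) and *Ptgir*, the prostacyclin receptor, by 0.56 (-0.56, adjusted p = 0.000106). For cDC1s against macrophages 17 of 29 passed, 8 higher and 9 lower, where 54.2% of all probes were called. *Ptgdr2* was detected on 5 of 5 cDC1 arrays, 1 of 10 macrophage arrays and 3 of 10 monocyte arrays, so its fitted differences of cDC1s from macrophages (0.96, adjusted p = 1.91e-09) and from monocytes (0.83, adjusted p = 1.50e-08) are measured mostly against background. *Ptgis* (1.94, adjusted p = 5.98e-07) and *Ptger2*, a prostaglandin E2 receptor (0.76, adjusted p = 3.60e-05), were higher, and *Cyp4f18* (-4.00, adjusted p = 7.80e-17), *Hpgds* (-3.03, adjusted p = 2.00e-13) and *Dpep2* (-1.90, adjusted p = 1.01e-10) lower. For cDC1s against monocytes 11 of 25 passed, 5 higher and 6 lower, where 54.6% of all probes were called, with *Akr1b3*, an enzyme with prostaglandin F synthase activity (0.75, adjusted p = 6.36e-07), and *Ptgis* (1.86, adjusted p = 9.97e-07) higher. *Cyp4f18* (-3.90, adjusted p = 1.00e-16) and *Dpep2* (-2.52, adjusted p = 7.75e-13) were lower there. *Ptgir*, detected on no cDC1 array, was at least 1.94-fold higher in monocytes, where the adjusted p of 3.94e-08 belongs to the fitted difference and not to this bound.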

How the data were processed

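Transcript levels were measured on Illumina MouseWG-6 BeadChips in sorted colon cells of DSS treated WT and Mbd2-/- mice. The authors deposited mean bead intensity per probe and array, not normalized and without background subtraction, and a detection p-value per probe and array computed against negative control beads. The deposited table holds 45281 probes, 936 negative controls and 3 signal columns of no sample, which were not used. The submitters' processing notes name lumi and limma. The 2 splenic T cell arrays were not analysed here. The number of arrays limits the precision.

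Background was corrected by normexp with negative controls inferred from the detection p-values (offset 16), and 25 arrays were quantile normalized to log2. A single limma model (lmFit, contrasts.fit, eBayes) covered 6 groups (R 4.3.3, limma 3.58.1, and version 1.17.8 of data.table). To be tested, a probe had to be detected (p under 0.05) on as many of the arrays compared as the smaller side has, and in an interaction as the smallest group has. Tests were two-sided, with Benjamini-Hochberg adjustment over all probes tested in a comparison. All 10 members are named, each by its brightest probe on average, with other probes where they differ in direction or in passing. Of 44 further pathway genes, up to 3 per direction with the smallest adjusted p are named, and for each member the 3 genes of highest correlation among probes detected on at least 5 arrays. One of the latter is not reported here. The members and lists were chosen with earlier results of these data known. The fit was tested on simulated data.

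The alternatives were an offset of 50 or no background correction, cyclic loess or median scaling in place of quantiles, all probes tested, probes with detection p under 0.01 throughout a group, adjusted p under 0.01, a minimum log2 difference of 1, array weights, sets of 6 columns as a random or fixed block, cell types fitted alone, 1 genotype alone, label numbers 10 apart as a random block, and each array left out. Background correction with the listed negative controls was added after seeing the data. Groups share no number in the labels. Numbers 10 apart (monocytes and macrophages of a genotype) correlated in their deviations from the group means at over 0.1 in 8 of 10 cases, not in all. The correlations ran from -0.02 to 0.56. These arrays were not taken as pairs, and whether they share mice is not known. Promoters were taken from a RefSeq table of build GRCm38.p6.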

Additional observations from a re-analysis of the deposited data

Results flagged for a closer look

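Of the members, 4 values came up because the genotype effect, Mbd2-/- minus WT, differed between cell types in the limma interaction. That of *Ltc4s* was 1.36 higher in cDC1s than in macrophages on the log2 scale (adjusted p = 0.0218), and that of *Ltb4r1* 1.17 higher (adjusted p = 0.0139). Column position cannot be told apart from either, because the cDC1 genotypes lay in different column sets. For the dimmer *Ptges* probe the difference was -1.42 for macrophages against monocytes (adjusted p = 0.0315) and -1.52 for cDC1s against monocytes (adjusted p = 0.0168), while the brighter probe gave -0.72 (adjusted p = 0.727) and -1.49 (adjusted p = 0.181). The dimmer probe was detected on 0 of 5 WT macrophage arrays and 1 of 5 cDC1 arrays and passed the filter through monocytes, so the size outside monocytes is set by the limit of detection and no difference between cell types is read from it.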

How the results depend on the processing

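The number of probes called changed by over 1.5 times under several settings. In the order genotype in monocytes, in macrophages and in cDC1s, the counts were 383, 1214 and 1536, and 100, 145 and 816 under median scaling, 172, 400 and 858 without the filter, 133, 194 and 401 at an adjusted p under 0.01, and 68, 244 and 336 with a log2 difference of at least 1. Array weights gave 1075 in monocytes and 389 in cDC1s, and a cell type fitted alone 224 in macrophages and 0 in cDC1s. Macrophages against monocytes gave 6597 calls, 3912 under median scaling, 4206 in WT arrays and 800 with the log2 minimum, which left 2965 of 9839 for cDC1s against macrophages and 3011 of 9591 against monocytes. The interaction counts were 7 (macrophages, monocytes), 1796 (cDC1s, macrophages) and 365 (cDC1s, monocytes), with 2, 994 and 35 under median scaling, 0, 239 and 44 at an adjusted p under 0.01, 4, 845 and 147 with the log2 minimum and 11, 322 and 124 with array weights. Cyclic loess gave 2 and 1137 for the first pair, and no filter 897 and 132 for the last pair. The cause was not tested.

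Leaving out 1 array gave 183 to 524 calls in monocytes (183 without WT array 2 or 3, 202 without Mbd2-/- array 10, 249 without 7, 255 without 9), 403 to 1930 in macrophages (403 without WT array 12, 634 without 14, 1930 without 15, 516 and 410 without Mbd2-/- arrays 19 and 20) and 860 to 2738 in cDC1s (860 and 2738 without WT arrays 23 and 26, 881 without Mbd2-/- array 30). Cell type counts were 6215 to 6874, 8742 to 10141 and 8642 to 9885. Interaction counts were 4 to 11 (4 without monocyte arrays 2 or 9, 11 without monocyte array 6 or macrophage array 16), 484 to 3059 (484, 3059, 942 and 860 without cDC1 arrays 23, 26, 28 and 30, 1185 without macrophage array 19) and 182 to 1733 (1733, 912 and 182 without cDC1 arrays 26, 27 and 30, 210 and 232 without monocyte arrays 3 and 10, 604 and 552 without macrophage arrays 12 and 20).

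Of 2523 member values over all settings, 2410 kept their direction and side of the threshold, 61 were no longer past it, 10 newly passed and 42 turned direction. Median scaling turned *Ltb4r1* in monocytes (-0.19), *Ptges2* (-0.24), *Ltc4s* (-0.20) and *Ltb4r1* (-0.39) in cDC1s, *Ptges2* in cDC1s against macrophages (-0.26) and the *Ltb4r1* interaction of cDC1s and monocytes (-0.20). Cyclic loess turned *Alox5ap* in monocytes (0.039), in cDC1s (0.13) and in cDC1s against monocytes (0.23), and *Ptges* in cDC1s (0.31). *Ptges* in cDC1s was also 0.04 at an offset of 50, 0.02 with array weights and 0.008 fitted alone, and *Hpgd* there 0.019 with array weights. *Alox5* in macrophages was -0.01 without background correction, -0.006 at an offset of 50 and -0.10 with array weights. In WT arrays *Ptges2* was -0.19 in cDC1s against macrophages and *Alox5ap* 0.007 in cDC1s against monocytes, where *Ptges2* was 0.17 in Mbd2-/- arrays.

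Leaving out 1 array turned direction for *Ptges2* (-0.18 to 0.04), *Alox5* (-0.21 to 0.03), *Alox5ap* (-0.08 to 0.003) and *Ltb4r1* (-0.002 to 0.16) in monocytes, *Ptgs2* (-0.25 to 0.072) and *Alox5* (-0.23 to 0.16) in macrophages, and *Ptgs1* (-0.044 to 0.78), *Ptges* (-0.55 to 0.28), *Ltc4s* (-0.14 to 0.87) and *Hpgd* (-0.97 to 0.87) in cDC1s. It did so for *Ptges2* (-0.13 to 0.026) and *Alox5ap* (-0.07 to 0.004) in cDC1s against monocytes, and for the *Ltb4r1* interaction there (-0.031 to 0.30). The *Ltc4s* interaction there passed without WT cDC1 array 26 (1.27, adjusted p = 0.0332). *Ltc4s* and *Ltb4r1* in macrophages stayed past the threshold when any 1 array was left out, but their differences of -0.99 and -0.94 lie short of the log2 minimum of 1. The dimmer *Ptges* probe, at the limit of detection outside monocytes, was no longer past the threshold in its fitted interaction of macrophages and monocytes in 13 of 25 such fits (adjusted p up to 0.0838), under median scaling (0.139), cyclic loess (0.112) and no filter (0.0760), and that of cDC1s and monocytes under median scaling (0.0857), cyclic loess (0.0607) and without WT cDC1 array 23 (0.0692).

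Median scaling moved the median of all probes to -0.26 in monocytes and -0.37 in cDC1s, and the share of calls that were higher from 44.9% to 29%, from 48% to 76.6% (59.1% by cyclic loess) and from 52.8% to 3.8% for the genotypes, and from 51.5% to 21.8% and 51.6% to 23.4% for cDC1s against macrophages and monocytes. No pairing entered the main fit because the groups share no number in the labels, which does not show that their mice differ. Numbers 10 apart as a random block were run as a trial for macrophages against monocytes alone (11 values). This gave 6822 calls against 6597 in the main fit and changed no member's call. As a fixed block, sets of 6 columns changed no member's call for the genotypes in monocytes and macrophages (21 values). Sets of 6 columns as a random block, the stricter filter and the listed negative controls changed no member's call in the 76, 73 and 76 values run. Probes near the detection limit have little room to show a lower level.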
